A study of Mus musculus with 18 samples.

Results

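The acute phase proteins Serpina3n, Cp, Hp and Saa3 were followed at the RNA level in mouse kidney. They were chosen as all probe sets whose single gene symbol in the array's probe-to-gene table is 1 of these 4 names. Each name had 1 probe set, which gave 4 of the 12422 probe sets that are not array controls. Kidney RNA of C57 mice was hybridised to Affymetrix arrays, 1 array per mouse and 18 in all. The groups were 6 Aprt KO mice at 7 days (Aprt-/- in the series text), 6 controls at 7 days (Aprt+/+), 3 Aprt KO mice at 1 month and 3 controls at 1 month. The labels name, for each mouse labelled Aprt KO, a same-sex control from its litter, so that there were 6 litter pairs at 7 days (pairs 1 to 6, 3 female and 3 male) and 3 at 1 month (pair 7 female, pairs 8 and 9 male). Aprt encodes adenine phosphoribosyltransferase, an enzyme of adenine salvage. Its loss lets xanthine oxidase turn adenine into dihydroxyadenine, a poorly soluble compound that can crystallise in the kidney. The sources used here do not describe the construct of the Aprt allele.

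Acute phase proteins are plasma proteins whose production changes sharply during inflammation or tissue injury. The liver makes most of them, driven by interleukin 6 and related cytokines through the receptor subunit gp130 and the transcription factor STAT3, and by interleukin 1 through C/EBP and NF-kB factors. Injured kidney tubules and infiltrating macrophages can also produce several of them. Serpina3n is a secreted inhibitor of serine proteases that belongs to the mouse cluster related to human alpha-1-antichymotrypsin. Cp encodes ceruloplasmin, a copper-carrying ferroxidase that helps load iron onto transferrin. Hp encodes haptoglobin, which binds free haemoglobin and passes it to the macrophage receptor CD163. Saa3 is a serum amyloid A protein that mice make largely outside the liver, for example in macrophages and fat.

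The genes lie on different chromosomes. In RefSeq's annotation of mouse build GRCm38.p6 they span chr12:104406646-104414334 for Serpina3n, chr3:19956933-20009750 for Cp, chr8:109575128-109579172 for Hp and chr7:46711998-46719615 for Saa3. The 250 bases before a RefSeq start site are shown for 3 of the genes, because the pathway genes described further on include the factor families whose motifs were searched there. The strand is plus for Serpina3n (chr12:104406458-104406707) and Cp (chr3:19956999-19957248) and minus for Saa3 (chr7:46715677-46715926). By the spans above, these Cp and Saa3 windows lie inside the gene and the Serpina3n window reaches past its outer start. The start sites used here are therefore not the outermost ones of the genes. Capitals mark the motif matches, and each sequence is written 5′ to 3′ on the gene's strand.
Serpina3n: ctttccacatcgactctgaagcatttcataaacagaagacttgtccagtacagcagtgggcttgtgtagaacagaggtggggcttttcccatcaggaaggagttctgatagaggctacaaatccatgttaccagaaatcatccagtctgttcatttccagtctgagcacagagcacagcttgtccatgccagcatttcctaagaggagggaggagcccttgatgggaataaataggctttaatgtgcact
Cp: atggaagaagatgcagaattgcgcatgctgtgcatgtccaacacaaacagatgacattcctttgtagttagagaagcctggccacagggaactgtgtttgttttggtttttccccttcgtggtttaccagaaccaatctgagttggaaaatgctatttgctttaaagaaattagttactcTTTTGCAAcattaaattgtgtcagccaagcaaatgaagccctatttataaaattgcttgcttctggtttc
Saa3: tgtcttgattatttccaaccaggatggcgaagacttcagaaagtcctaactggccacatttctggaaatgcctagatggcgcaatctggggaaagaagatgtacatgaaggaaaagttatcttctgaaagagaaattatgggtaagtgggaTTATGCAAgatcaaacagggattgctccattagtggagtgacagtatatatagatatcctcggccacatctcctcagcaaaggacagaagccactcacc

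The motifs searched on both strands were TTCNNNGAA for STAT factors, TTGCNNAA for C/EBP factors and GGGA, any base, TT, any base, CC for NF-kB. The C/EBP motif was found on the opposite strand as TTTTGCAA in the Cp window, 70 to 63 bases before the start, and as TTATGCAA in the Saa3 window, 99 to 92 bases before it. The Serpina3n window and a second Cp window (chr3:19956804-19957053, plus strand) held none of the 3 motifs. Among 32851 RefSeq promoter windows of the same 250 bases, 7.02% held the STAT motif, 9.56% the C/EBP motif and 0.98% the NF-kB motif. These matches describe letters in the windows and no binding was measured.

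Some arrays stood apart or went against their labels. The knocked-out gene, Aprt, was read from the brightest of its 3 probe sets, which lies at the 35th percentile of mean signal, and the position of its probes relative to the altered region was not known. It lay at 41.9 to 135 signal units on the 7-day arrays labelled Aprt KO and at 51.3 to 148 on the 7-day controls. At 1 month it lay at 52.3 to 86.5 on the arrays labelled Aprt KO and at 104 to 110 on the controls. By the midpoint of the group medians at each age, 4 arrays went against their label. At 7 days these were the array labelled Aprt KO of pair 4 and the controls of pairs 1 and 2. At 1 month it was the array labelled Aprt KO of pair 7. Its 86.5 lay above the midpoint of 82.9 but below every control of that age. The log2 fold change of Aprt was -0.58 at 7 days (SE 0.23, limma adjusted p = 0.425) and -0.54 at 1 month (SE 0.33). Neither passed the test, so the arrays against their label are marked by a gene whose genotype difference was not called. The arrays of pair 4 also had a lower ceiling, with a highest signal of 10167 for the array labelled Aprt KO and 10767 for its control, against 25718 to 51453 on the others. Median signals of the arrays ran between 160.1 and 216.4. Groups below are those of the labels, and the directions rest on them.

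At 7 days Serpina3n was far higher in the kidneys labelled Aprt KO, and Cp was higher by a smaller factor. Hp and Saa3 were higher by factors that did not pass the main test, which held no litter term, and passed with the litter pair as a block. Signals are the deposited linear values, which compare arrays for 1 probe set but not 1 gene with another. Tests were run with limma on log2(signal + 29) over all 12422 probe sets, with Benjamini-Hochberg adjustment and a threshold of 0.05, and fold changes on this scale understate the change of dim genes. In whole kidney RNA, fewer cells of a type and less RNA per cell cannot be told apart. Of the 12422 probe sets, 1.78% were called at 7 days, 1.51% as higher and 0.266% as lower in the arrays labelled Aprt KO, and 2 of the 4 acute phase genes were called, both higher.

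Serpina3n, the protease inhibitor, had 2387, 2443, 1297, 1395, 1760 and 1961 signal units in the 7-day mice labelled Aprt KO of litter pairs 1 to 6, against 261, 247, 286, 297, 205 and 295 in their control littermates. Every mouse labelled Aprt KO was above every control, and the lowest of them was still well above the highest control. The means were 1874 ± 484 in the mice labelled Aprt KO and 265 ± 35.6 in controls (SD, n = 6 each). The log2 fold change was 2.66 (SE 0.18, 95% interval 2.29 to 3.03, limma adjusted p = 4.68e-08), the 9th highest of the 12422 probe sets. Within litters the ratio of signals ran between 4.54 in pair 3 and 9.90 in pair 2. Without the 4 arrays that went against their label the log2 fold change was 2.74 (limma adjusted p = 1.75e-05).

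Cp, the ferroxidase, had 387, 309, 253, 331, 350 and 353 signal units in the 7-day mice labelled Aprt KO of pairs 1 to 6, against 94.0, 149, 107, 192, 92.2 and 131 in their control littermates. The groups did not overlap, and the control of pair 4 was the highest of the controls. The means were 330 ± 45.7 in the mice labelled Aprt KO and 128 ± 38.6 in controls (SD, n = 6 each). The log2 fold change was 1.22 (SE 0.19, 95% interval 0.82 to 1.63, limma adjusted p = 0.00112), and the litter ratios ran between 1.72 in pair 4 and 4.11 in pair 1. It was 1.24 (limma adjusted p = 0.00611) without the 4 arrays that went against their label.

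Hp, the haemoglobin-binding protein, had 522, 461, 386, 666, 532 and 424 signal units in the 7-day mice labelled Aprt KO of pairs 1 to 6, against 285, 247, 314, 209, 337 and 326 in their control littermates. The groups did not overlap, although the lowest mouse labelled Aprt KO, in pair 3, lay at 386 and the highest control, in pair 5, at 337. The means were 499 ± 99.5 in the mice labelled Aprt KO and 286 ± 49.7 in controls (SD, n = 6 each). The log2 fold change of 0.74 (SE 0.19, 95% interval 0.34 to 1.14) had a limma adjusted p of 0.0631. With the litter pair as a fixed replicate block the limma adjusted p was 0.0219, and with the litter as a random block it was 0.0087. It also passed with 5 other processing settings that use no block, among them no sex term (limma adjusted p = 0.0424) and quantile normalization (0.0437). Without the 4 arrays that went against their label the log2 fold change was 0.60 (limma adjusted p = 0.472).

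Saa3, the serum amyloid A protein made outside the liver, had 88.6, 44.5, 70.0, 164, 85.5 and 128 signal units in the 7-day mice labelled Aprt KO of pairs 1 to 6, against 12.1, 24.1, 51.3, 49.0, 50.8 and 70.6 in their control littermates. The groups overlapped: 4 of the 6 mice labelled Aprt KO lay above the highest control, and those of pairs 2 and 3 did not. Saa3 was dim, with a mean signal at the 28.3rd percentile of all probe sets. The means were 96.8 ± 42.7 in the mice labelled Aprt KO and 43.0 ± 21.2 in controls (SD, n = 6 each). The log2 fold change of 0.80 (SE 0.24, 95% interval 0.29 to 1.30) had a limma adjusted p of 0.145. With the litter pair as a block the limma adjusted p was 0.0481 (fixed) and 0.0251 (random). Without the 4 arrays that went against their label it was 0.41 (limma adjusted p = 0.771), and with a pseudocount of 1 in place of 29 it was 1.23.

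Each of the 4 genes was higher in the mouse labelled Aprt KO in 6 of 6 litter pairs, and 5.56% of all probe sets were. For 3 of the 4 the groups did not overlap, with every array labelled Aprt KO above every control, as 1.5% of all probe sets were. The pairs did not order the 4 genes alike. Pair 3 had the smallest log2 difference for Serpina3n, Hp and Saa3 and the fourth largest for Cp. Pair 1 had the largest for Cp and Saa3, the second largest for Serpina3n and the third for Hp. Pair 4, whose arrays had the lower ceiling, had the largest difference for Hp and the smallest for Cp. With that pair left out, the 7-day log2 fold change was 2.77 for Serpina3n (limma adjusted p = 7.56e-07), 1.33 for Cp (0.0025), 0.58 for Hp (0.297) and 0.69 for Saa3 (0.394). By sex, the Serpina3n ratio ran between 4.69 and 9.13 in the 3 male pairs and between 4.54 and 9.90 in the 3 female pairs. The Saa3 ratio ran between 1.81 and 7.32 in male pairs and between 1.36 and 1.85 in female pairs, and a difference between the sexes was not tested.

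**Figure D1:**
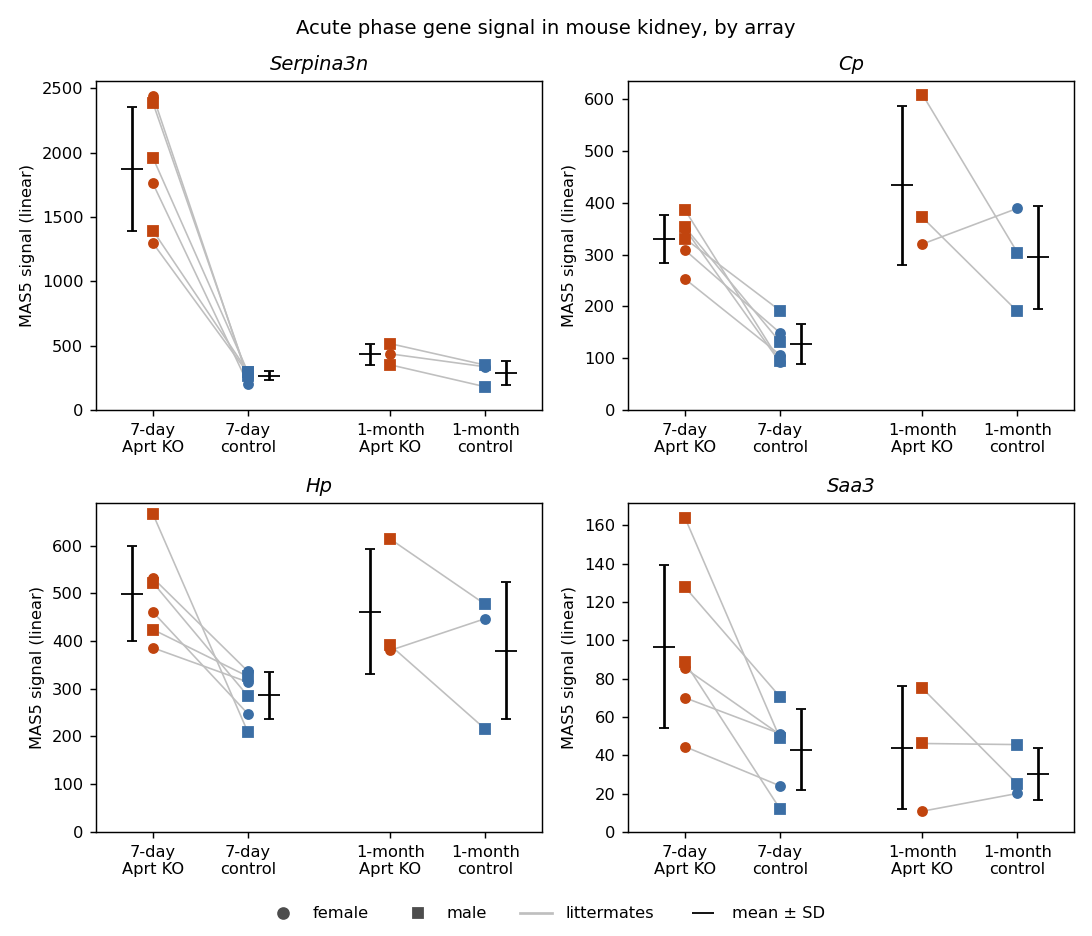
Deposited signal of Serpina3n, Cp, Hp and Saa3 (linear MAS5 units, vertical axis) in each mouse of the 4 groups, with the group mean and SD. The 7-day mice labelled Aprt KO lie above all 7-day controls for Serpina3n, Cp and Hp, while the Saa3 groups overlap.

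At 1 month the 4 genes had smaller differences, and none passed the test across all probe sets, of which 0.0644% were called. Serpina3n had 436, 515 and 351 signal units in the mice labelled Aprt KO of pairs 7 to 9, against 335, 349 and 180 in their control littermates. The groups touched without overlapping, since the lowest mouse labelled Aprt KO lay at 351 and the highest control at 349, and at this age 3.75% of all probe sets had every array labelled Aprt KO above every control and 2.64% had every one below. The means were 434 ± 82.2 in the mice labelled Aprt KO and 288 ± 93.7 in controls (SD, n = 3 each). Serpina3n was higher in the mouse labelled Aprt KO in 3 of 3 litter pairs, as were 14.2% of all probe sets. The log2 fold change was 0.58 (SE 0.25, 95% interval 0.05 to 1.10, limma adjusted p = 1.00, unadjusted 0.0325).

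The other 3 genes overlapped between genotypes at 1 month. Cp had 321, 609 and 372 signal units in the mice labelled Aprt KO of pairs 7 to 9, against 390, 304 and 190 in their littermates, with a log2 fold change of 0.52 (SE 0.27, 95% interval -0.06 to 1.09). Hp had 380, 613 and 391 in the mice labelled Aprt KO, against 447, 477 and 215 in the littermates, with a log2 fold change of 0.30 (SE 0.27, 95% interval -0.27 to 0.87). In pair 7, the female pair, Cp and Hp were lower in the mouse labelled Aprt KO, and in pairs 8 and 9 they were higher. Saa3 had 10.8, 46.2 and 75.0 in the mice labelled Aprt KO, against 20.1, 45.6 and 25.0 in the littermates, with a log2 fold change of 0.22 (SE 0.34, 95% interval -0.50 to 0.94). Saa3 followed the same split, lower in pair 7 and higher in pairs 8 and 9, although the difference in pair 8 was under 1 signal unit. The limma adjusted p was 1.00 for each of the 3. The mouse labelled Aprt KO of pair 7 is 1 of those whose Aprt signal went against the label, although that signal was below every 1-month control. Without the 4 arrays that went against their label the log2 fold changes were 0.69 for Serpina3n, 0.90 for Cp, 0.56 for Hp and 0.48 for Saa3. The lowest limma adjusted p of these was 0.685. At 1 month this drops the only female labelled Aprt KO, and the sex term then takes up the only female control. The 1-month genotype difference therefore rests on the males of pairs 8 and 9, here and wherever those arrays are left out.

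The genotype difference of Serpina3n itself changed with age. Its log2 fold change at 1 month minus that at 7 days came to -2.08 (SE 0.30, 95% interval -2.73 to -1.44, limma interaction adjusted p = 0.00469), where 0.274% of all probe sets were called. It was -2.05 (limma adjusted p = 0.0899) without the 4 arrays that went against their label, and -2.19 (limma adjusted p = 0.0055) without pair 4. The interaction was -0.71 for Cp (SE 0.33, 95% interval -1.41 to -0.0013), -0.43 for Hp (SE 0.33) and -0.58 for Saa3 (SE 0.42), each with a limma adjusted p of 1.00. Those values were -0.33 for Cp, -0.04 for Hp and 0.07 for Saa3, where the sign turned, without the 4 arrays that went against their label. The interaction and both genotype comparisons use the same arrays.

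With age, Serpina3n fell in the mice labelled Aprt KO and Cp rose in the controls. Mean Serpina3n signal in the mice labelled Aprt KO was 434 at 1 month and 1874 at 7 days, a log2 fold change of -1.98 (SE 0.22, limma adjusted p = 2.75e-06). In controls it was 288 at 1 month and 265 at 7 days, a log2 fold change of 0.10 (SE 0.22, limma adjusted p = 0.823). Cp was at 295 ± 99.9 in 1-month controls (SD, n = 3) and at 128 ± 38.6 in 7-day controls (SD, n = 6), which is a difference of 1.04 on the log2 scale (SE 0.24, limma adjusted p = 0.00367). Leaving out the 1-month control of pair 7 brought this to 0.56 (limma adjusted p = 0.313). That mouse was the only female 1-month control, so the fit then took the 1-month sex difference from the mice labelled Aprt KO alone. In the mice labelled Aprt KO, Cp was at 434 ± 154 at 1 month and at 330 ± 45.7 at 7 days, with a log2 fold change of 0.33 (SE 0.24, limma adjusted p = 0.386). In the age comparison 23.7% of all probe sets were called in the mice labelled Aprt KO (8.32% as higher and 15.4% as lower at 1 month), and 23.7% in controls (8.12% as higher and 15.6% as lower). The median log2 fold change of all probe sets with age was -0.10 in the mice labelled Aprt KO and -0.08 in controls as deposited, and after median scaling it was 0.07 in the mice labelled Aprt KO and 0.08 in controls.

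Saa3 fell with age in the mice labelled Aprt KO, where it was at 44.0 ± 32.1 at 1 month (SD, n = 3) and at 96.8 ± 42.7 at 7 days (SD, n = 6), with a log2 fold change of -0.95 (SE 0.30, limma adjusted p = 0.0283). The 2 groups overlapped, and the lowest value, 10.8, belonged to the mouse of pair 7. Without that array the log2 fold change was -0.62 (limma adjusted p = 0.449), and without pair 4 it was -0.83 (limma adjusted p = 0.0647). The first of these fits took the 1-month sex difference from the controls alone, since the array left out was the only 1-month female labelled Aprt KO. In controls Saa3 was at 30.2 ± 13.5 at 1 month and at 43.0 ± 21.2 at 7 days, a log2 fold change of -0.37 (SE 0.30, limma adjusted p = 0.456). Hp was at 462 ± 132 in 1-month and 499 ± 99.5 in 7-day mice labelled Aprt KO, and at 380 ± 143 in 1-month and 286 ± 49.7 in 7-day controls. Its log2 fold changes with age, -0.11 in the mice labelled Aprt KO (SE 0.24, limma adjusted p = 0.813) and 0.33 in controls (SE 0.24, limma adjusted p = 0.394), did not pass the test. The first of these was 0.05 after quantile normalization and 0.14 after median scaling.

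**Figure D2:**
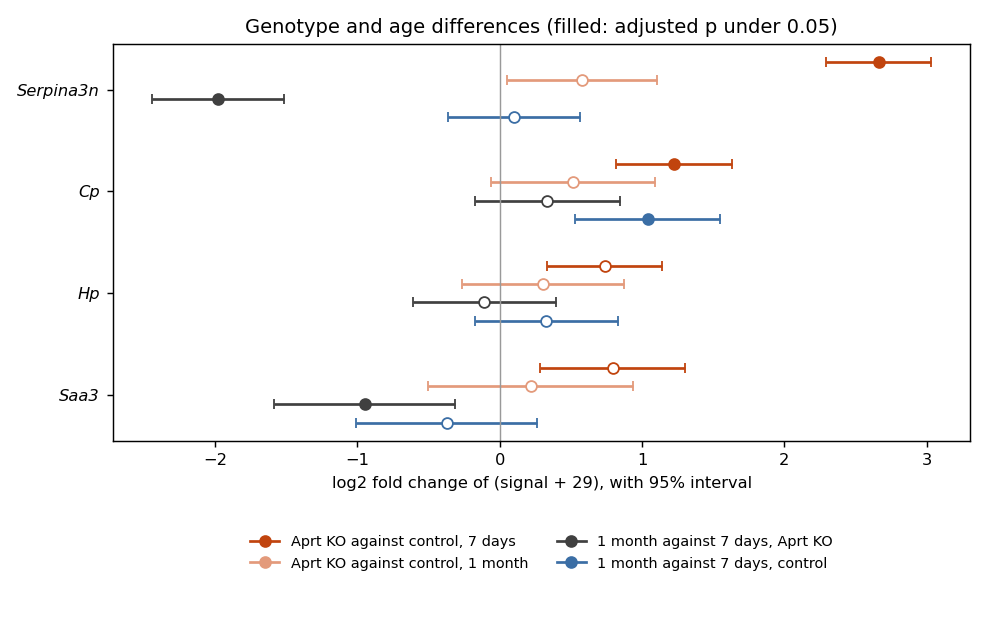
Log2 fold changes of (signal + 29) with 95% intervals (horizontal axis) for the 4 genes in the genotype comparison at each age and in the age comparison of each genotype. Filled points passed the adjusted p threshold of 0.05: Serpina3n and Cp by genotype at 7 days, Serpina3n and Saa3 by age in the mice labelled Aprt KO, and Cp by age in controls.

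The levels of each gene across the 4 groups can be ordered by their means. Serpina3n was highest in 7-day mice labelled Aprt KO, followed by 1-month mice labelled Aprt KO, 1-month controls and 7-day controls, and of these neighbours only the first pair was separated by the test. Cp ran in the order 1-month mice labelled Aprt KO, 7-day mice labelled Aprt KO, 1-month controls and 7-day controls, of which the 2 control groups differed in the test, the 2 groups labelled Aprt KO did not, and the 7-day mice labelled Aprt KO were not tested against 1-month controls. Hp was highest in 7-day mice labelled Aprt KO, then in 1-month mice labelled Aprt KO, 1-month controls and 7-day controls, and no neighbours in this order passed a test. Saa3 was highest in 7-day mice labelled Aprt KO, next in 1-month mice labelled Aprt KO and 7-day controls, which lay within their spread, and lowest in 1-month controls.

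Other positive acute phase genes were mixed at 7 days. Of 38 listed genes 27 were measured, 5 rose, none fell and 22 did not pass the test, with 19 higher in the mice labelled Aprt KO. The median log2 fold change was 0.25, against -0.01 over all genes. Those that rose were Lcn2, the iron-siderophore binding lipocalin released by injured tubules, Cd14, the endotoxin co-receptor, Il1rn, the interleukin 1 receptor antagonist, Serping1, the C1 inhibitor of complement, and Fgg, the fibrinogen gamma chain. Lcn2 averaged 3321 ± 441 in the mice labelled Aprt KO and 280 ± 85.5 in controls (SD, n = 6 each), a log2 fold change of 3.47 (limma adjusted p = 1.86e-09). The log2 fold change was 2.55 for Il1rn, 1.74 for Cd14, 0.71 for Fgg and 0.62 for Serping1. Fgg, whose call was lost without the 4 arrays that went against their label and without pair 4, was dim, at 38.7 ± 14.8 in the mice labelled Aprt KO and 12.0 ± 7.82 in controls (SD, n = 6 each).

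Of the classic liver products of the acute phase, most did not pass the test without the litter block at 7 days. Saa2, a liver-type serum amyloid A, averaged 152 in the mice labelled Aprt KO and 126 in controls, a log2 fold change of 0.25 (limma adjusted p = 0.943). Lrg1, a leucine-rich glycoprotein of plasma, had a log2 fold change of 1.21 (limma adjusted p = 0.052) and Fga, the fibrinogen alpha chain, one of 0.58 (limma adjusted p = 0.148). Both passed under a fixed block of litter pairs, with limma adjusted p values of 0.0084 for Lrg1 and 0.0080 for Fga. Other positive acute phase genes were lower in the mice labelled Aprt KO without passing. Their log2 fold changes were -0.35 for Crp, -0.31 for Itih3, -0.24 for Ptx3 and -0.17 for Saa4, all dim. The value was -0.14 for Cfb and -0.13 for Pzp. Mt1 and Mt2, at the 98.8th and 98.9th percentiles of mean signal, had -0.19 and -0.13. The remaining 19 of the 27 positive acute phase genes were higher. Of 8 measured negative acute phase genes, whose production falls in inflammation, none passed the limma test at 7 days or at 1 month. With the fixed litter block Rbp4, encoding the retinol carrier of plasma, passed at 1 month with a log2 fold change of 1.56 (limma adjusted p = 0.0126). Among these, Alb, encoding albumin, had a 7-day log2 fold change of 0.48 (SE 0.36) and Ttr, encoding the thyroid hormone carrier transthyretin, one of -0.0045 (SE 0.16). At 1 month, 1 of the 27 positive acute phase genes passed, Lcn2, with a log2 fold change of 1.62 (limma adjusted p = 0.0152). With the fixed litter block Serping1 also passed there, with a log2 fold change of 0.68 (limma adjusted p = 0.0042). With the litter pair as a fixed block, 9 of the 27 rose at 7 days, and that fit also called more of all probe sets, as counted further on.

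Some of the signalling genes upstream of the acute phase rose at 7 days. Of 31 listed genes 26 were measured, 11 rose, none fell and 15 did not pass the test, with 24 higher in the mice labelled Aprt KO and a median log2 fold change of 0.59, against -0.01 over all genes. Lifr, a receptor of leukemia inhibitory factor (-0.26), and Nr3c1, the glucocorticoid receptor (-0.36), were the 2 with a log2 fold change below 0, and neither passed. Among ligands, Il1b, the cytokine interleukin 1 beta, averaged 179 ± 47.6 in the mice labelled Aprt KO and 13.1 ± 2.90 in controls (SD, n = 6 each), a log2 fold change of 2.28 (limma adjusted p = 4.68e-08). Il6, whose protein is the main liver inducer, was dim at 32.5 ± 17.7 in the mice labelled Aprt KO and 7.93 ± 7.72 in controls (SD, n = 6 each), a log2 fold change of 0.71 (limma adjusted p = 0.095, or 0.0132 under the fixed litter block).

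Among receptors, Osmr, the oncostatin M receptor, averaged 698 ± 126 in the mice labelled Aprt KO and 134 ± 58.4 in controls (SD, n = 6 each), a log2 fold change of 2.21 (limma adjusted p = 2.28e-06). Il6st, which encodes gp130, rose by 0.58 on the log2 scale (limma adjusted p = 0.000927), while Il6ra, the interleukin 6 receptor, had a log2 fold change of 0.84 that did not pass (limma adjusted p = 0.143, and 0.0376 with the fixed litter block). Among the factors downstream, Bcl3, a nuclear partner of NF-kB, averaged 424 ± 97.5 in the mice labelled Aprt KO and 55.6 ± 5.34 in controls (SD, n = 6 each), a log2 fold change of 2.40 (limma adjusted p = 2.79e-08). Socs3, the feedback inhibitor of gp130 signalling, had a log2 fold change of 1.78 (limma adjusted p = 1.86e-06), and Stat3 itself one of 0.58 (limma adjusted p = 0.0011). Of the C/EBP factors, the log2 fold change was 0.77 for Cebpd (limma adjusted p = 0.0396) and 0.74 for Cebpb (limma adjusted p = 0.0499). That of Cebpa, 0.23, did not pass (limma adjusted p = 0.995). With the litter pair as a fixed block 17 of the 26 rose and Lifr fell, without the 4 arrays that went against their label 5 rose, and without pair 4, 8 rose. Over all probe sets the block also raised the number called and leaving out those arrays lowered it, as counted further on. At 1 month none of the 26 passed the limma test, and 20 were higher in the mice labelled Aprt KO. In the interaction Bcl3, Il1b, Osmr and Socs3 passed with a smaller genotype difference at 1 month, between -2.41 for Bcl3 and -1.55 for Socs3 (limma adjusted p 0.000155 to 0.0479).

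**Figure D3:**
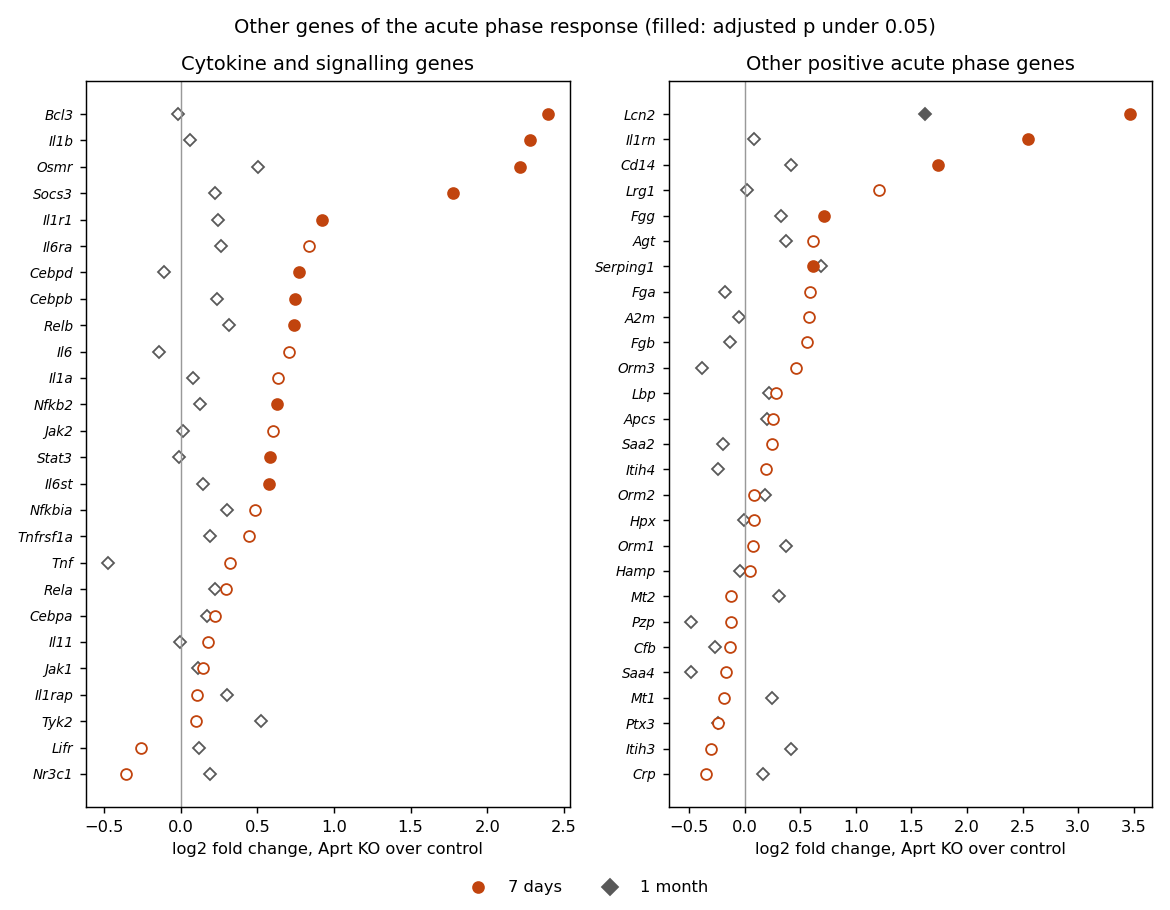
Log2 fold changes of (signal + 29) between mice labelled Aprt KO and controls for each measured gene of the signalling and positive acute phase lists at 7 days and 1 month. At 7 days 24 of 26 signalling genes and 19 of 27 positive acute phase genes lie above 0, and the medians are 0.59 and 0.25.

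The proteins that act on or with the 4 members were measured through 15 of 20 listed genes. None rose at 7 days and 1 fell, with a median log2 fold change of -0.01. The gene that fell was Klk1, a tissue kallikrein protease of the distal tubule, read only from the brightest of its 2 probe sets. It was at 575 ± 236 in the mice labelled Aprt KO and 1398 ± 266 in controls (SD, n = 6 each). The log2 fold change was -1.32 (limma adjusted p = 0.00255). The single values overlapped between the groups. Hmox1, the haem-degrading enzyme that acts after haptoglobin has delivered haemoglobin, had a log2 fold change of -0.14 (SE 0.15). Heph, a membrane-bound ferroxidase related to ceruloplasmin, had one of -0.18 (SE 0.21). Under the fixed litter block Lrp1, a receptor that takes up protease-inhibitor complexes, rose as well. At 1 month none of the 15 passed the limma test, while with that block Scarb1, a lipoprotein receptor that also binds serum amyloid A, passed with a log2 fold change of 0.89 (limma adjusted p = 0.0059).

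Markers of other cell types were measured on the same arrays. Of 12 macrophage and monocyte markers 7 rose at 7 days and all 12 were higher, and their summed signal was 6262 to 8360 in the mice labelled Aprt KO and 2575 to 4537 in controls. Without Cd14, which injured tubules can also express, the sums were 4794 to 6359 in the mice labelled Aprt KO and 1970 to 3942 in controls. Those with the smallest p included Lyz2, the macrophage lysozyme, with a log2 fold change of 2.38, C1qa and C1qb, the complement C1q chains, with 1.49 and 1.32, Cd68, a lysosomal glycoprotein, with 1.05, and Csf1r, the receptor of the macrophage growth factor, with 0.64. At 1 month the macrophage sum was 3165 to 4069 in the mice labelled Aprt KO and 2547 to 3133 in controls, and none of the 12 passed the limma test. At 7 days 4 of the 12 rose without the 4 arrays that went against their label. The part of macrophages in the values of the 4 genes was not tested.

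Of 12 neutrophil markers 2 rose at 7 days, Lcn2 and S100a8, and S100a8, a calcium-binding protein of granulocytes, had a log2 fold change of 1.06. Of the 12, 1 rose without the 4 arrays that went against their label. Without Lcn2 the summed neutrophil signal was 1065 to 1479 in the mice labelled Aprt KO and 778 to 1071 in controls. Of the 12 markers 10 were higher in the mice labelled Aprt KO. Among those that did not pass, the log2 fold change was 0.83 for S100a9, 0.53 for Ltf, 0.47 for Prtn3, 0.27 for Mmp8, 0.23 for Cxcr2, 0.14 for Ly6g, 0.05 for Mpo, 0.02 for Ngp, -0.0030 for Elane and -0.02 for Camp. Liver markers summed to 1514 to 2038 in the mice labelled Aprt KO and 1123 to 1660 in controls at 7 days, and 1 of 14, Fgg, rose. None of the 14 passed the limma test there without the 4 arrays that went against their label or without pair 4, so the Fgg call was lost in both. At 1 month the liver sum was 1791 to 2460 in the mice labelled Aprt KO and 2213 to 2500 in controls. Fat markers summed to 2562 to 7117 in the 7-day mice labelled Aprt KO and 2455 to 6400 in controls, and none of 8 passed the limma test. At 1 month the fat sum was 4587 to 9278 in the mice labelled Aprt KO and 5864 to 6956 in controls. None of the 8 passed there, with a median log2 fold change of 0.29, and 1.20 without the 4 arrays that went against their label. The part of these cell types in the values of the 4 genes was not tested.

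**Figure D4:**
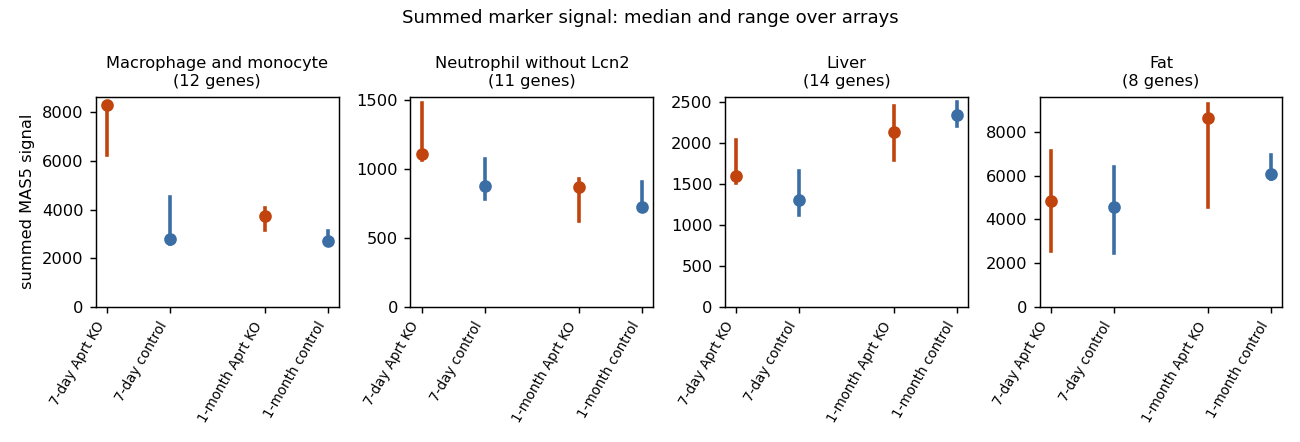
Summed deposited signal (vertical axis, linear units from 0) of macrophage and monocyte, neutrophil (without Lcn2), liver and fat markers in each of the 4 groups, as the median and the range over arrays. The 7-day macrophage ranges do not overlap, with 6262 to 8360 in mice labelled Aprt KO and 2575 to 4537 in controls.

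The kidney itself was checked through 9 markers of tubule segments, none of which passed the limma test at 7 days. Their summed signal was 33269 to 48824 in the 7-day mice labelled Aprt KO and 43670 to 62738 in controls, and 8 of the 9 were lower in the mice labelled Aprt KO. With the litter pair as a fixed block 6 of the 9 fell, in a fit that also called more of all probe sets, as counted further on.

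The genes whose log2 signal was most like each member over the 18 arrays were named by Pearson's r, as a description of arrays that share the group differences. Serpina3n was closest to Cd14 (r = 0.96), the macrophage elastase Mmp12 (0.96), the tubule injury gene Clu (0.95) and the chemokines Ccl9 (0.95) and Cxcl5 (0.94). Cp was closest to Tmem176a (0.85), the vitamin D hydroxylase Cyp24a1 (0.79), Lrg1 (0.79), Laptm5 (0.76) and Fgg (0.74). Hp was closest to Sprr2e (0.86), Cd247 (0.83), Il6ra (0.83), Fcer1g (0.79) and Laptm5 (0.77). Saa3 was closest to the chemokine Ccl11 (0.84), the adhesion molecule Icam1 (0.81), Krt20 (0.81), Serpinb6c (0.80) and the adaptor Myd88 (0.80).

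With each group's mean taken off, the nearest genes were others for most members, which leaves likeness within groups only. The nearest was Slc6a9 for Serpina3n (r = 0.81), Laptm5 for Cp (0.81), Mlst8 for Hp (0.87) and Cyct for Saa3 (0.88), over the same 18 arrays. Laptm5, a lysosomal membrane protein of blood cells, was among the 5 nearest to Cp on both measures, and Serpinb6c was so for Saa3. None of the 5 nearest to Serpina3n or to Hp was shared between the measures.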

How the data were processed

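Kidney RNA of 18 mice was measured on 1 array each. The deposited values are linear intensity signals for 12488 probe sets, which per the submitters' processing notes the authors made with GCOS and MAS5. Their versions and the scaling target were not given in the sources used here. The 66 control probe sets were left out. Probe sets were named from GEO's platform annotation (10833 with 1 symbol, 396 with several, 1193 with none); only single symbols were used. Coordinates and promoter windows came from RefSeq GRCm38.p6. Signals were used without further normalization as log2(signal + 29), 29 being the rounded 20th percentile of all values, with no low-signal filter.

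limma 3.58.1 (R 4.3.3) fitted 4 groups and a sex term per age to all 12422 probe sets (lmFit, eBayes with trend, 12 residual degrees of freedom), with Benjamini-Hochberg adjustment. The labels name a littermate for each mouse, so the 9 litters pair the samples, but this main fit held no litter term. Deviations within pairs from the group means correlated at 0.158 to 0.552. The alternative with a random litter block used a litter correlation of 0.433. Nothing says that other arrays share a batch. The number of arrays, 3 to 6 per group, limits precision. The script was tested on simulated data.

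The 4 members and all lists were chosen with earlier results of these data known. In lists, each gene was its brightest probe set. The text names list genes called in a genotype comparison, up to 6 per list by smallest p, and the 5 probe sets nearest to each member by r. Il6, Il6ra, Lrg1, Fga, Saa2, Crp, Itih3, Saa4, Alb, Ttr, Hmox1, Heph, Lifr, Nr3c1, Lrp1, Rbp4, Scarb1, Hba-a1, Alas2 and neutrophil markers that did not pass are named in addition, having been picked once their values were known. Cebpa, Cebpb, Cebpd, Ptx3, Cfb, Pzp, Mt1 and Mt2 were likewise picked with their values known. Alternatives were other pseudocounts, normalizations, filters, blocks, no sex term, ages apart, arrays left out, and, chosen after seeing the data, list counts without pair 4, without the arrays against their labels and with the block.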

Additional observations from a re-analysis of the deposited data

Results flagged for a closer look

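Serpina3n, the secreted serine protease inhibitor, differed by genotype to an unequal extent at the 2 ages. Its log2 fold change between mice labelled Aprt KO and controls at 1 month minus that at 7 days was -2.08 (SE 0.30, limma interaction adjusted p = 0.00469). The mice labelled Aprt KO were higher in 3 of 3 pairs at 1 month and in 6 of 6 pairs at 7 days. No array stood apart from its group by Dixon's test for the 4 genes in the 7-day groups.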

How the results depend on the processing

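At 7 days Serpina3n and Cp were called under 39 of 39 alternatives (log2 fold change 2.37 to 2.79 and 0.89 to 1.40). Hp passed in 12 of 39, at 0.74 with quantile normalization, dim probe sets left out, the brightest probe set per gene, no sex term, either litter block or ages fitted apart, and ran between 0.58 and 0.83 with samples left out. Saa3 passed in 2 of 37, at 0.80 with the litter as a replicate block, fixed or random. At 1 month none of the 4 passed, and Hp (-0.07) and Saa3 (-0.15) turned sign when a control or both mice of pair 9 were left out. Serpina3n by age in controls and Hp by age in mice labelled Aprt KO, neither of which passed, each turned sign in 4 of 37. The Serpina3n interaction passed in 37 of 38, and without the 4 arrays against their label it was -2.05 and did not pass; the Saa3 interaction was then 0.07. Cp by age in controls passed in 36 of 37 and ran between 0.56 and 1.29 with samples left out. Hp by age in controls ran between 0.0010 and 0.65, passing without the control or both mice of pair 9. Saa3 by age in mice labelled Aprt KO passed in 22 of 35: it was -0.80 under quantile normalization and median scaling, -0.82 without the sex term, -0.52 without the arrays against their label and -1.13 to -0.44 with samples left out. The causes were not tested. The litter pair as a block changed no other call of the 4 genes. It gave 522 (fixed) and 491 (random) called probe sets at 7 days in place of 221, 58 and 92 at 1 month in place of 8, and 89 and 88 for the interaction in place of 34. Without the arrays against their label the counts were 122 at 7 days, 9 for the interaction and 1331 by age in mice labelled Aprt KO in place of 2949. The 1-month count was 23 with a pseudocount of 1, 0 with one of 112, 18 with the brightest probe set per gene, 15 without dim probe sets, 5 with median scaling and 1 with ages apart. With samples left out the lowest counts were 145 at 7 days (without pair 5), 0 at 1 month (17 without pair 4), 13 for the interaction, 1591 by age in controls (without the control of pair 7, in place of 2948) and 1553 by age in mice labelled Aprt KO. Of the age calls 1033 of 2949 in mice labelled Aprt KO and 1009 of 2948 (34.2%) in controls were higher at 1 month, 46.9% and 46.1% with quantile normalization, and 63.0% and 61.1% with median scaling; of the interaction calls 23.5% were higher, 13.3% and 11.5% under these. Ages fitted apart give no interaction or age value, the fixed block no age value, and filters no Saa3 value. Over the alternatives the 7-day value of Saa3, a dim probe set, ran between 0.41 (without the arrays against their label) and 1.23 (with a pseudocount of 1).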

Other observations

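Among the blood markers, Slc4a1, an anion exchanger, fell at 7 days, with a log2 fold change of -0.79 (limma adjusted p = 0.000454). It was at 232 ± 37.2 signal units in mice labelled Aprt KO and 429 ± 109 in controls (SD, n = 6 each). The other measured blood markers, Hba-a1 (log2 fold change 0.16, SE 0.43) and Alas2 (-0.31, SE 0.38), did not pass the limma test at 7 days. The summed signal of the 3 blood markers overlapped between the groups, at 8728 to 33543 in mice labelled Aprt KO and 7922 to 35580 in controls. Adrenal markers, of which 5 were measured, were lower in the 7-day mice labelled Aprt KO than in controls (5 of 5 genes) and higher in the 1-month ones (5 of 5), and none passed the limma test at either age. Their 7-day median log2 fold change was -0.79, and 0.01 without the 4 arrays that went against their label. At 1 month the median was 1.76, and 2.37 without those arrays.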
